A study of Mus musculus with 16 samples.

Results

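Broad H3K4me3 domains were the 416 regions of 7000 bp or more among the 26654 regions of the deposited H3K4me3 list, chosen by width alone. They were 1.56% of the regions and held 3.69 of 50.4 Mb, or 7.33% of the H3K4me3 bases. The list came from chromatin immunoprecipitation and sequencing (ChIP-seq) of immortalized mouse embryonic fibroblast lines, with further lists for succinyllysine and for H3K27me3. The experimental line was R26M2rtTA/+;TetOcre;Sdhcfl/fl, with both copies of Sdhc floxed, and the control line was R26M2rtTA/+;TetOcre;Sdhcfl/wt, with a floxed and a wild-type copy. Sdhc encodes a membrane subunit of succinate dehydrogenase. Both lines carried the reverse tetracycline transactivator at Rosa26 and the Cre that it switches on, both received doxycycline at 1 µg/mL, and both were sampled at day 16. From each line came 2 inputs and 2 ChIP samples per antibody, which makes 16 samples, 4 of them inputs and 12 of them ChIP libraries. The labels do not say whether a line was a single clone.

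Each deposited list stood for the 4 ChIP libraries of an antibody across both lines, and it gave a start and an end per region without any height, score or signal of a sample. The fl/fl and fl/wt lines could therefore not be compared, there was no spread between replicates, and no test was made. Read depth is unknown from the lists. Intervals below are exact Clopper-Pearson 95% intervals that cover counting error only, and neighbouring regions are not independent.

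H3K4me3, trimethylation of lysine 4 of histone H3, is placed by the Set1 and MLL complexes at the starts of active genes. Most such regions span a few nucleosomes on either side of a start, while wide ones are known for covering regulators of cell identity and highly transcribed genes. H3K27me3 is the mark of Polycomb repression, and promoters that carry it together with H3K4me3 are called bivalent. Succinyllysine is a lysine that carries a succinyl group, which succinyl-CoA donates, and succinate dehydrogenase acts on the succinate made from succinyl-CoA in the tricarboxylic acid cycle.

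Promoter sequences are shown for 4 genes that the results return to. Nfix had the most succinyllysine bases in its broad domain, Cdkn1b had a succinyllysine region that began just past its start, Hoxa10 lay in a Hox cluster, and Meis1 had H3K27me3 inside its broad domain. Each is the 250 bases before the start, 5′ to 3′ on the gene's strand, from RefSeq on GRCm38.p6, an assembly whose chromosome positions are those of mm10. Where a gene had several starts in the domain, the most upstream is shown. Capitals mark matches on either strand to GGGCGG of the Sp1 family, to the CCAAT box, to TATAAA of the TATA box and to TGANTCA of AP-1, and these motifs do not overlap one another in the windows shown. The Nfix window was chr8:84780083-84780332 on the minus strand, and it lay wholly inside a succinyllysine region.
Nfix: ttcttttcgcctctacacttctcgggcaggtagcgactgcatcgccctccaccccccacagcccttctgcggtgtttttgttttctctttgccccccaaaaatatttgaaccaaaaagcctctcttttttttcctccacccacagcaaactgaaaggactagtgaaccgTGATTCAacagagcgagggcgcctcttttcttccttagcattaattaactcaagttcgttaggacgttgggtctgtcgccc
The Cdkn1b window was chr6:134920151-134920400 on the plus strand, and it held no succinyllysine or H3K27me3 base.
Cdkn1b: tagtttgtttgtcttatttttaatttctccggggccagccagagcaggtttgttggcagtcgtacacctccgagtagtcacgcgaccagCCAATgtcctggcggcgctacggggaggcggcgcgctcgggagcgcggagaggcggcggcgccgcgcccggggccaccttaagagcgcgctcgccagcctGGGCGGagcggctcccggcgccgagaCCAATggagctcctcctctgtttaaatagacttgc
The Hoxa10 window was chr6:52240855-52241104 on the minus strand, and it held no base of either list.
Hoxa10: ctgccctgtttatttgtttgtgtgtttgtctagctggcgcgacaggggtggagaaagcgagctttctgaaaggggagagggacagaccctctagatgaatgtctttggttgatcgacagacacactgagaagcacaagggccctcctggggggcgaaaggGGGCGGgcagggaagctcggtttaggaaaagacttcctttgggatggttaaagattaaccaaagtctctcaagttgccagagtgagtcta
The Meis1 window was chr11:19018970-19019219 on the minus strand, and it held no base of either list, although the domain around it did.
Meis1: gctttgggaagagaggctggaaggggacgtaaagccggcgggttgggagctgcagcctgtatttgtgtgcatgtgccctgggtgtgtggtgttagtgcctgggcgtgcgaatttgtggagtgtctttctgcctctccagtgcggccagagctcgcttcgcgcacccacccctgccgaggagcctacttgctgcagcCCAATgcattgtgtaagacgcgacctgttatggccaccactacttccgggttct
The CpG count was 28 in the Cdkn1b window, 13 in the Meis1 window, 11 in the Nfix window and 7 in the Hoxa10 window. The ratio of observed to expected CpGs was 1.08 for Cdkn1b, 0.78 for Nfix, 0.60 for Meis1 and 0.46 for Hoxa10.

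Mature microRNAs (miRNAs) are shown for hairpins inside broad domains that overlapped succinyllysine or that shared a seed. The seed, bases 2 to 8, is the part that pairs with target messenger RNAs and is in capitals. Sequences are RefSeq's.
mmu-miR-199a-5p: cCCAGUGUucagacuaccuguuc
mmu-miR-199a-3p: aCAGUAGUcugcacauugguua
mmu-miR-196b-5p: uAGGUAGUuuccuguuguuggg
mmu-miR-125b-5p: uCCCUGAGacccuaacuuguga
mmu-miR-125a-5p: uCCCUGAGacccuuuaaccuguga
mmu-miR-15b-5p: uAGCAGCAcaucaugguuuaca
mmu-miR-16-5p: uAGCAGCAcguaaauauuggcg
miR-125b-5p and miR-125a-5p share the seed CCCUGAG, and miR-15b-5p and miR-16-5p share the seed AGCAGCA. The first pair came from broad domains on chromosomes 9 and 17, and the second from a broad domain on chromosome 3.

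The median broad domain was 8000 bp wide, the quartiles were 7400 and 9400 bp, and the widest was 31100 bp. Of the 416, 201 were 7000 to 7900 bp, 138 were 8000 to 9900 bp and 77 were 10000 bp or more, of which 14 reached 15000 bp. The threshold cut a continuous range, since 23 regions were exactly 7000 bp and 33 were exactly 6900 bp. The first regions of 7000 bp in file order were a group of tRNA genes on chromosome 1, Plxdc2, which encodes a membrane protein, and the shared region of Ssna1 and Anapc2, a subunit of the anaphase-promoting complex. The first of 6900 bp were at Col5a2, a fibrillar collagen gene, at Mastl and Yme1l1, and at Cd44, which encodes the hyaluronan receptor. None of these 6 regions held succinyllysine or H3K27me3.

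Broad domains were spread over the chromosomes, with 38 on chromosome 11, 32 on chromosome 17, 31 on chromosome 3, 1 on the X chromosome and 0 on the Y chromosome. The X domain was at Pcdh19, a protocadherin gene, with 7300 bp. Some domains were pieces of longer tracts. In all, 52 of the 416 (12.5%) abutted another H3K4me3 region with no gap, against 13.9% of all H3K4me3 regions, and 130 had a neighbour within 1000 bp. The widest tract of abutting regions was the pair at Evx2 and Hoxd9 to Hoxd13 on chromosome 2, which together spanned 48100 bp from 74651001 to 74699100.

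Defining markers were used to check the labelled cell type. Of 10 fibroblast markers, 9 had H3K4me3 at an annotated start or gene end, and Thy1, a surface glycoprotein gene, had none. Broad domains covered 3 of them, namely the homeobox gene Prrx1 with 9200 bp, the type I collagen gene Col1a1 with 7800 bp and the bHLH gene Twist1 with 7200 bp. Of 18 markers of other cell types, 5 had H3K4me3 and 0 had a broad domain, beside 2.49% of all coding genes. The widest of those 5, Sox2 of pluripotent and neural cells, had 5200 bp with 2400 bp of H3K27me3 inside it. The succinate dehydrogenase genes had regions under the threshold, with 5400 bp at Sdha, 5200 bp at Sdhd, 4000 bp at Sdhc and 3300 bp at Sdhb.

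Succinyllysine covered a larger share of the bases of broad domains than of other H3K4me3 regions. A succinyllysine region touched 132 of the 416 broad domains by at least 1 bp, or 31.7% (interval 27.3 to 36.4), against 6.33% of all H3K4me3 regions. Since a wider region has more room to be touched, the share of bases is the closer comparison. Succinyllysine covered 463000 bp, or 12.5% of the bases of broad domains, against 3.48% of the bases of H3K4me3 regions under 7000 bp. Taken over bins of 100 bp, the interval of the first value was 12.2 to 12.9%, which is too narrow because bins of a region are not independent. From the narrowest to the widest class of region, the share of bases was 2.47%, 5.17%, 5.36%, 2.82%, 3.60% and 12.5%, so it did not climb steadily with width below the threshold. The central 1000 bp of each region, a window of equal length, gave the same order, with 71 of 416 broad domains touched there (17.1%) and 742 of 13700 regions of 1000 to 6900 bp (5.42%).

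**Figure D1:**
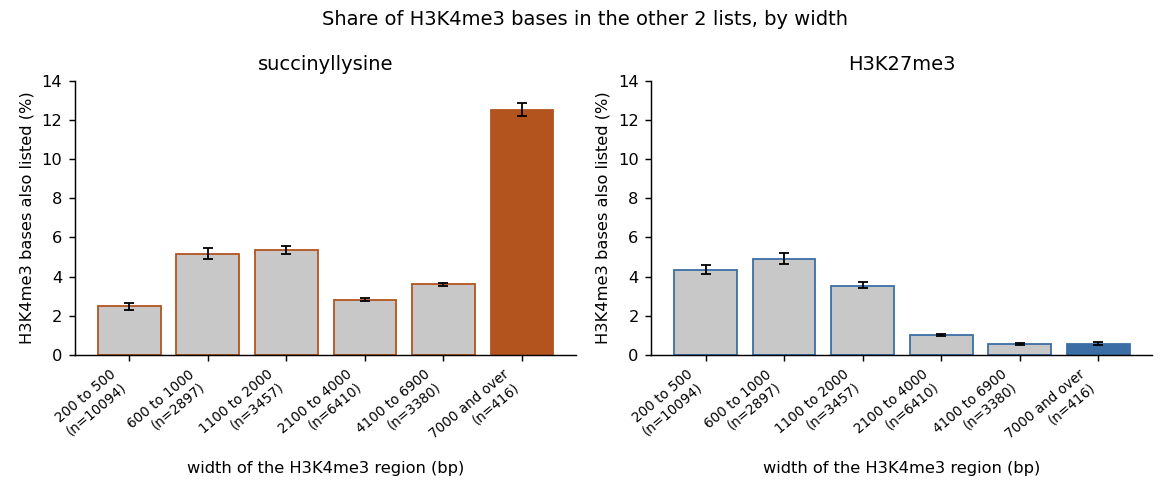
Share of H3K4me3 bases (y axes, percent) that also lay in the succinyllysine list (left) or the H3K27me3 list (right), by width of the H3K4me3 region (x axes, bp), with broad domains in full colour. Bars are the values, n is the number of regions, and error bars are exact 95% intervals over 100 bp bins, which count neighbouring bins as independent. Broad domains stand at 12.5% for succinyllysine and 0.560% for H3K27me3, beside 3.60% and 0.546% for regions of 4100 to 6900 bp.

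Within the broad domains, succinyllysine increased with width. It touched 44 of 201 domains of 7000 to 7900 bp (21.9%, interval 16.4 to 28.3), 42 of 138 of 8000 to 9900 bp (30.4%, interval 22.9 to 38.8) and 46 of 77 of 10000 bp or more (59.7%, interval 47.9 to 70.8). The shares of bases were 5.90%, 9.37% and 26.2% in the same order. Close to the threshold there was no step: 27 of 123 domains of 7000 to 7400 bp were touched (22.0%, with 4.53% of bases), and 37 of 193 regions of 6500 to 6900 bp (19.2%, with 5.52% of bases). The base share was thus highest in the widest domains.

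Succinyllysine was unevenly divided among the 416 domains. The 132 domains that were touched held from 400 to 15100 bp with a median of 2000 bp. At least 1000 bp lay in 116 domains and at least 5000 bp in 32. Succinyllysine covered 50% or more of 29 domains and 90% or more of 4. The 10 domains with most succinyllysine held 24.6% of all succinyllysine bases inside broad domains. Broad domains as a whole held 6.18% of the bases of the succinyllysine list and 22.2% of those succinyllysine bases that lay on any H3K4me3 region.

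**Figure D2:**
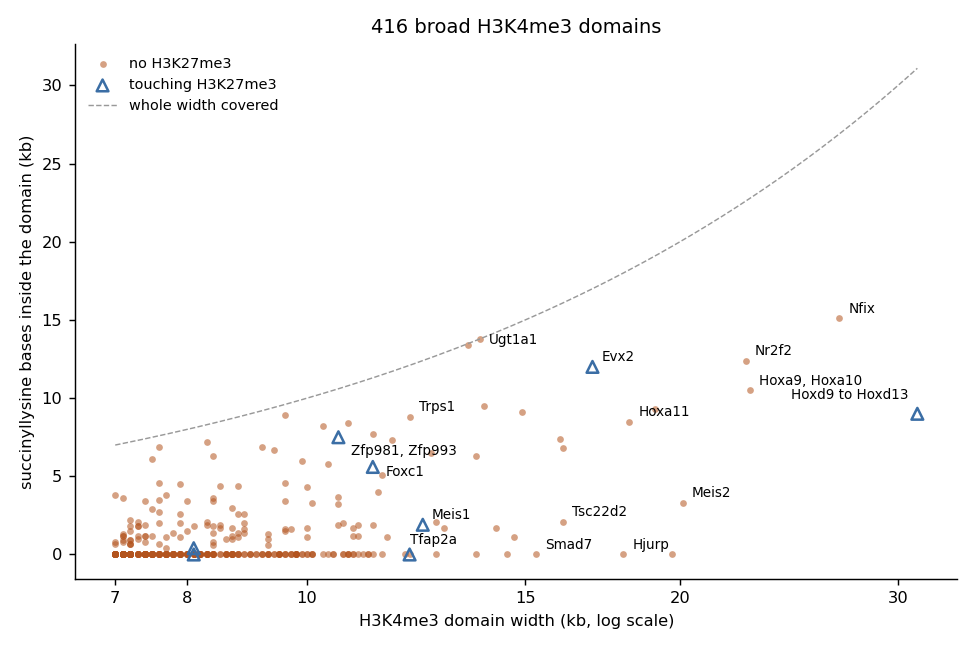
Width of each of the 416 broad domains (x axis, kb, log scale) against the succinyllysine bases inside it (y axis, kb), with the 8 domains that touch H3K27me3 as open triangles and the dashed curve where the whole width would be covered. Most points lie at 0, Ugt1a1 lies on the curve at 13.8 kb, and Smad7 is a wide domain with 0, as is Hjurp, where unique placement of reads was not tested.

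Nfix, a nuclear factor I gene, had a broad domain of 26900 bp on chromosome 8 (84767101 to 84794000) with 15100 bp of succinyllysine (56.1%) as 1 region from 84774701 to 84789800. Nr2f2, which encodes the nuclear receptor COUP-TFII, had 22600 bp with 12400 bp in 6 succinyllysine regions. Evx2, Hoxa9 with Hoxa10, and Hoxd9 to Hoxd13 were also among the 10 domains with most succinyllysine. Mecom, which encodes a zinc finger factor, had 2 broad domains, of 13900 bp with 9500 bp of succinyllysine and of 10800 bp with 8400 bp. Trps1, the gene of a GATA-type repressor of cartilage development, had 12100 bp with 8800 bp. A T-box gene of the forelimb and heart, Tbx5, held a domain of 14900 bp inside its body with 9100 bp of succinyllysine, and Tbx15, a T-box gene of limb and skeleton, held one of 16100 bp with 6800 bp. Prrx1, a homeobox gene of limb mesenchyme, had 9200 bp with 6900 bp.

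Not every wide domain held succinyllysine. Smad7, the inhibitory Smad of TGF-beta signalling, had 15300 bp with none, and the domain of Mvp, Pagr1a, Prrt2 and Maz had 14500 bp with none. Hjurp, which encodes the chaperone of the centromeric histone CENP-A, had 18000 bp with none, and a domain of 19700 bp inside Sfi1, a gene of a centrin-binding protein, had none, although whether reads could be placed uniquely at these 2 loci was not tested. Meis2, a homeobox cofactor gene, had 20100 bp with 3300 bp, and Tsc22d2, a leucine zipper gene, had 16100 bp with 2100 bp. Hence domains of like width ranged from no succinyllysine to more than 10000 bp of it.

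A few domains were covered almost end to end. The domain at the UDP-glucuronosyltransferase genes Ugt1a1 and Ugt1a6b on chromosome 1 (88211301 to 88225100) was covered over all of its 13800 bp. A domain of 13500 bp on chromosome 4 (147516901 to 147530400), over the pseudogenes Vmn2r-ps20 and Gm13141, had 13400 bp (99.3%). Snx9, the gene of an endocytic sorting nexin, had 8900 of 9600 bp (92.7%), and Zc3h4, a zinc finger gene, had 6900 of 7600 bp (90.8%). The domains at Ugt1a1, at the chromosome 4 pseudogenes, and at Hjurp and Sfi1 lie among gene families or repeated copies, and the treatment of reads that match several copies is not stated in the labels.

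Of 39 Hox genes, 13 were at broad domains (33.3%), beside 2.49% of all coding genes. These 13 lay in 5 domains, and each of the 5 touched succinyllysine. All 5 were of 10000 bp or more, a class in which 59.7% of domains were touched. Hox genes encode the homeodomain factors that set position along the body axis, and the limb uses the posterior genes of the HoxA and HoxD clusters. On chromosome 2, the widest of the 416 domains (74668001 to 74699100) held the starts of Hoxd9 to Hoxd13 in 31100 bp, of which 9000 bp was succinyllysine in 6 regions and 900 bp was H3K27me3. Its neighbour at Evx2, a homeobox gene beside the cluster, had 17000 bp with 12000 bp of succinyllysine (70.6%) and 700 bp of H3K27me3.

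On chromosome 6, succinyllysine differed along the HoxA cluster. The domain of Hoxa9 and Hoxa10 (52219301 to 52242100) had 22800 bp with 10500 bp of succinyllysine (46.1%), and that of Hoxa11 had 18200 bp with 8500 bp (46.7%). The domain of Hoxa3, Hoxa6 and Hoxa7 had 14700 bp with 1100 bp (7.48%). The domains of Hoxa9, Hoxa10 and Hoxa11 thus had a larger share of their bases in succinyllysine than that of Hoxa3, Hoxa6 and Hoxa7. A further broad domain of 8700 bp, inside Hoxa3 with none of its listed starts, held no succinyllysine.

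**Figure D3:**
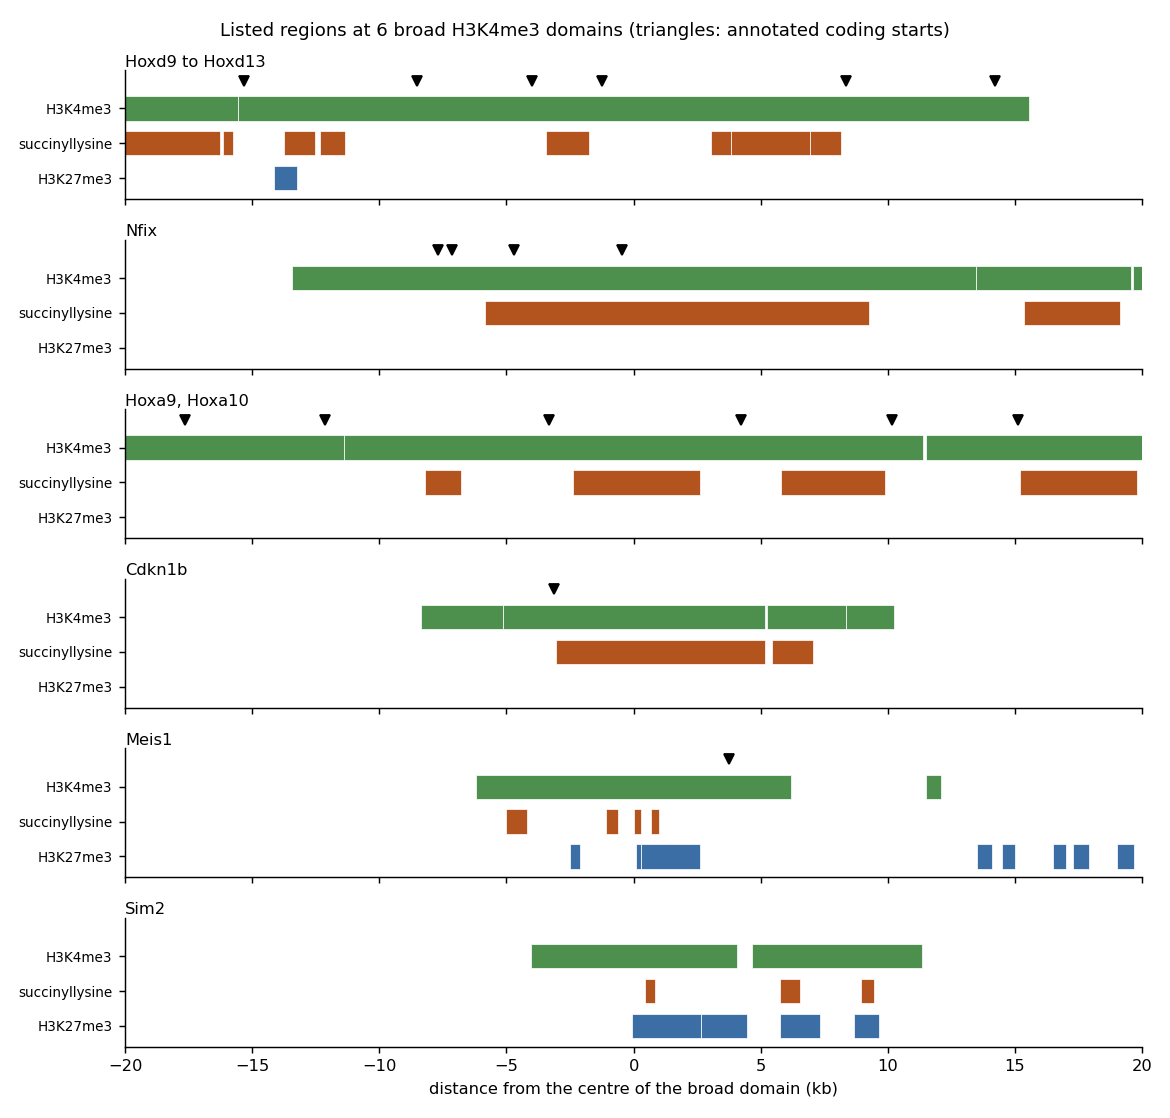
Listed regions at 6 broad domains by distance from the domain's centre (x axis, kb), with bars for H3K4me3, succinyllysine and H3K27me3 (rows) and triangles at the annotated coding starts. Succinyllysine lies as 1 long region at Nfix and as several separate regions at the Hox domains, and at Cdkn1b its region of 8200 bp begins beside the start. Meis1 and Sim2 have H3K27me3 inside the broad domain, and no start of Sim2 is drawn because the promoter table has no entry for it.

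Broad domains also covered inhibitors of the cell cycle. Cdkn1b, which encodes the inhibitor p27, had 10300 bp (chromosome 6, 134918401 to 134928700) with 8200 bp of succinyllysine in 1 region from 134920501 to 134928700. That region began 100 bp past the annotated start at 134920401, ended with the domain and spanned the 5125 bp gene but for its first bases. Cdkn2c, the gene of p18, had 13700 bp with 6300 bp of succinyllysine. Cdkn2a, the gene of p16 and p19ARF, had 2 broad domains, of 12900 bp with 1700 bp and of 7200 bp with 1800 bp. By contrast, the chromatin remodelling gene Arid1a had 9500 bp and held no succinyllysine.

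Protein-coding genes were assigned to a domain by an annotated start or, for 4395 of 21887 genes with no start in the promoter table, by a gene end. By this rule 544 genes (2.49% of all coding genes) lay in 373 of the 416 broad domains, 438 by a start and 106 by an end. An end can be the far end of a gene, since its strand is not given. Of the genes named here, Col1a1, Cyc1, Igf2bp1, Myc, Nfib, Plxdc2, Prrt2, Setd1b, Sim2, Smad7, Smc4, Snx9, Ssna1, Trps1, Tsc22d2, Ugt1a6b and Wdr24 were placed by an end. Of all coding genes, 53.2% lay in an H3K4me3 region of any width. Of the 544, 151 genes (27.8%) were in a domain that touched succinyllysine. The domains held 1 gene in 233 cases, 2 genes in 111, 3 genes in 24 and 4 or more in 5.

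Domains shared by several genes had a smaller share of bases in succinyllysine than those with a single gene. The share touched was 34.8% (interval 28.7 to 41.3) for domains with 1 gene, 23.4% (interval 15.9 to 32.4) for those with 2 and 20.7% (interval 7.99 to 39.7) for those with 3 or more. These intervals overlap. The shares of bases were 13.9%, 6.25% and 6.16%, at median widths of 8100, 7600 and 9500 bp. Of the 5 domains with 4 or more genes, the Hoxd domain was the only one touched. The others were those of Mvp, Pagr1a, Prrt2 and Maz with 14500 bp, of Med22, Rpl7a, Surf2 and Surf1 with 12000 bp, of Ring1, H2-Ke6, Slc39a7 and Rxrb with 11200 bp, and of Wdr24, Jmjd8, Stub1 and Rhbdl1 with 9000 bp. Maz encodes a zinc finger factor, Rpl7a a ribosomal protein, Rxrb a retinoid X receptor and Stub1 a ubiquitin ligase.

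Several domains were wider than a gene. In 86 domains at least 1 coding gene lay wholly inside, 113 genes in all, and Twist1, Foxc1, Nr2f2, Cdkn2c, Id2 and Pfn1 were among them. Genes of this kind were covered from before the start to past the end.

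At domains with a single coding gene and an annotated start, H3K4me3 extended further into the gene than away from it. Over 184 such broad domains, the median reach was 6110.5 bp downstream of the start (quartiles 5213 and 7516 bp) and 1862 bp upstream (quartiles 1203.25 and 2743.5 bp). The downstream arm was the longer in 169 of the 184 (91.8%). Over 2047 regions of 4100 to 6900 bp, the medians were 3518 bp downstream and 1307 bp upstream, with the downstream arm longer in 95.1%. The extra width of broad domains was therefore mostly inside genes. In 24 of the 184 the domain ran past the far end of the gene.

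Succinyllysine in these domains was not confined to the start. It covered 15.8% of their H3K4me3 bases in the 5000 bp upstream, 14.6% in the first 2000 bp downstream and 12.2% from 2000 to 6999 bp downstream. In regions of 4100 to 6900 bp the values were 5.00%, 3.48% and 1.63%. The ratio of the classes was thus largest in the last of these parts, within which it was higher from 2000 to 2499 bp (13.4% against 1.34%) than from 4500 to 4999 bp (11.0% against 4.02%). Along 5 equal steps from the edges to the middle of the domain, the share in broad domains was 7.51%, 12.0%, 13.1%, 14.2% and 15.8%, and in regions of 4100 to 6900 bp it was 2.71%, 3.76%, 3.88%, 3.82% and 3.84%.

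**Figure D4:**
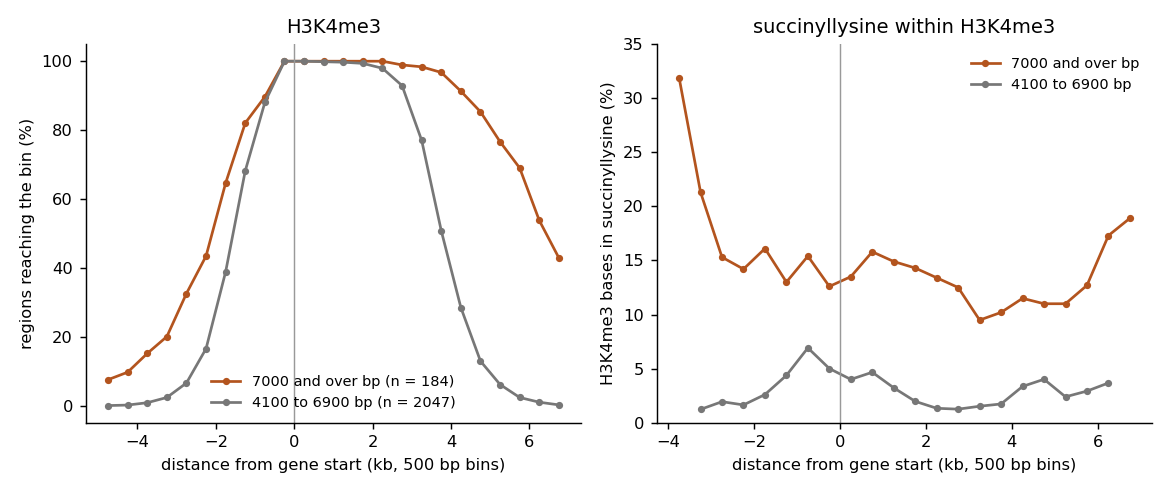
Distance from the annotated start (x axes, kb, 500 bp bins, positive into the gene) against the percent of regions that reach the bin (left) and the percent of H3K4me3 bases in the bin that lie in succinyllysine (right, bins reached by at least 20 regions), for 184 broad domains and 2047 regions of 4100 to 6900 bp. Broad domains extend to a median of 6110.5 bp downstream, and their succinyllysine share lies above that of the narrower regions in each bin shown for both.

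Gene lists chosen for fibroblasts differed in how many members had a broad domain. The lists were chosen with earlier results of these data known, so their shares are a description only. Beside 2.49% of all coding genes, the share was 24.2% of mesenchymal transcription factor genes (15 of 62), 23.3% of contractile cytoskeleton genes (10 of 43), 23.3% of TGF-beta, BMP and Hippo signalling genes (10 of 43) and 10.9% of extracellular matrix genes (6 of 55), and 9 of 50 immediate-early genes had one too. H3K4me3 of any width was present at 49 of 62, 40 of 43, 41 of 43, 47 of 55 and 49 of 50 genes of these lists. Over all coding genes it was present at 53.2%, so the 2.49% includes many genes without H3K4me3. The median width where H3K4me3 was present was 5600, 5450, 5700, 4800 and 4700 bp in these lists, beside 3500 bp over all genes with H3K4me3. Lists of other tissues had 0 genes at broad domains, with 17 pluripotency, 24 neuronal, 24 blood and endothelial, 17 epithelial and 17 liver genes examined. In the same order, 4, 4, 6, 6 and 1 of them had H3K4me3 of any width. Beside 2.49% of all coding genes, lists of this size are too small for 0 to set them apart.

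Members of the mesenchymal list varied in succinyllysine, with 8 of the 15 in a touched domain, beside 27.8% of all genes at broad domains. Width differs between these groups. Nfix, Meis2, Meis1, Foxc1, Foxp1 and Nfib were among the members with domains of 10000 bp or more, a class in which 59.7% were touched. Whether the list differs from other domains of like width was not tested. Foxp1, a forkhead gene with 2 broad domains, had 10600 bp with 3200 bp in the wider of them, and Tead3, a DNA-binding partner of the Hippo coactivators, had 8800 bp with 2600 bp. Nfib, a second nuclear factor I gene, had 10100 bp with none, unlike Nfix. The bHLH genes Twist1 and Twist2 had 7200 bp each with none.

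Among contractile genes, Lmna, the gene of the nuclear lamins A and C, had 12600 bp with 6500 bp of succinyllysine, and Pfn1, the gene of the actin monomer binder profilin, had 10600 bp with 3700 bp. Tpm1, the tropomyosin gene, had 11300 bp and the nonmuscle myosin gene Myh9 had 9200 bp, both with none. In the signalling list, Ccn1, a secreted Hippo target gene, had 8800 bp with 4400 bp, Amotl2, a regulator of the Hippo coactivators, had 11300 bp with 1900 bp, and Inhba, which encodes an activin subunit, had 10900 bp with none.

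Of the immediate-early genes at broad domains, 3 of 9 were in a touched domain, beside 27.8% of all genes at broad domains. Fosl2, an AP-1 subunit gene, had 9900 bp with 6000 bp. The MAP kinase phosphatase gene Dusp6 had 7300 bp with 1800 bp and Id2, an inhibitor of bHLH factors, had 9300 bp with 1000 bp. Myc had 7500 bp and the survival gene Mcl1 had 8700 bp, each with none.

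In the matrix list, the collagenase activator gene Mmp14 had 10100 bp with 3300 bp and the matrix glycoprotein gene Sparc had 7000 bp with 3800 bp. Col1a1 had 7800 bp with none. Tumour suppressor and cell cycle inhibitor genes had broad domains in 8 of 48 cases (16.7%), beside 2.49% of all coding genes. H3K4me3 of any width was present at 46 of the 48, beside 53.2% of all coding genes. Of the 8 at broad domains, 3 were in a touched domain, beside 27.8% of all genes at broad domains.

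**Figure D5:**
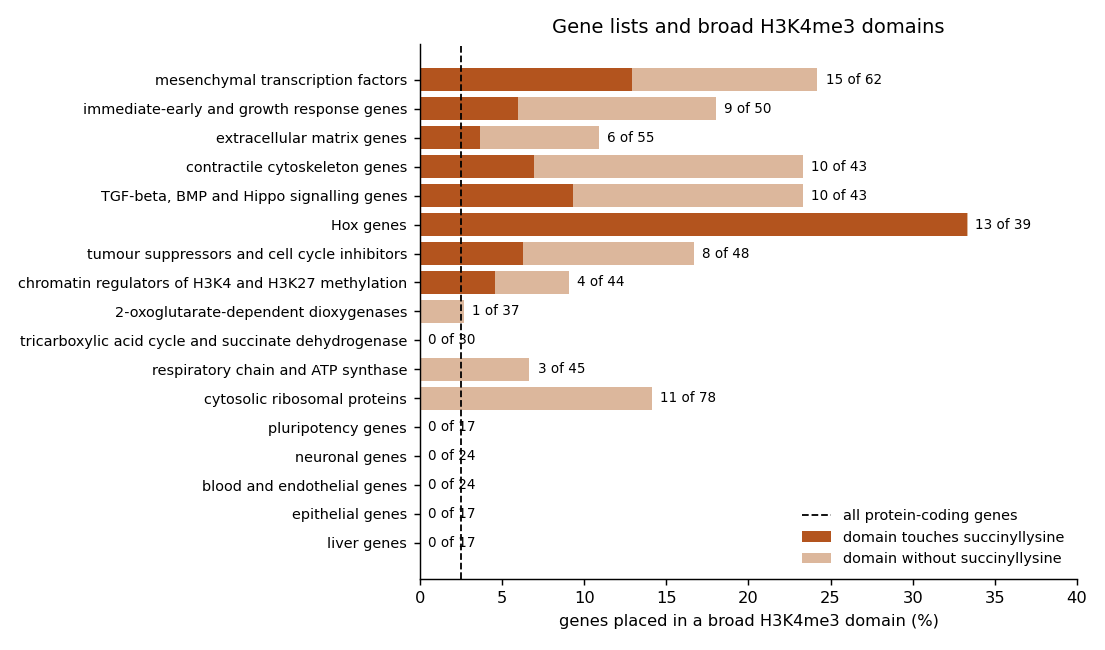
Percent of the genes of each list placed in a broad H3K4me3 domain (x axis), for 17 gene lists (rows), divided by whether the domain touches succinyllysine, with the dashed line at 2.49% for all coding genes and the counts beside the bars. The Hox genes reach 13 of 39, but these share 5 domains, all touched and all of 10000 bp or more. Of 78 ribosomal protein genes, 11 have a broad domain and none of those is touched, too few to set them apart. The lists were chosen with earlier results of these data known.

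Lists of metabolism and of histone methylation genes had between 0 and 4 members at broad domains. Chromatin regulators of H3K4 and H3K27 methylation had 4 of 44 (9.09%), beside 2.49% of all coding genes. Of these 4, 2 were in a touched domain, beside 27.8% of all genes at broad domains. Setd1b, which encodes a catalytic subunit of a Set1 complex, had 11500 bp with 5100 bp of succinyllysine, and the Polycomb ring finger genes Ring1 and Bmi1 had 11200 and 8600 bp with none. Of 37 listed genes of dioxygenases that use 2-oxoglutarate, a class that succinate inhibits, 1 had a broad domain (2.70%), namely Alkbh5, an RNA demethylase gene, with 7600 bp and no succinyllysine. Ogfod2, a gene of this class outside the list, shared a domain of 8600 bp with Arl6ip4, also without succinyllysine. Of 30 genes of the tricarboxylic acid cycle, 0 had one. The dioxygenase and tricarboxylic acid cycle lists stand beside 2.49% of all coding genes, a share too low to set lists of this size apart. The respiratory chain list had 3 of 45 (6.67%), beside the same 2.49%. Cyc1, the gene of cytochrome c1, was the widest with 10700 bp and no succinyllysine. H3K4me3 of any width was present at 42 of 44 chromatin regulators and 45 of 45 respiratory chain genes, beside 53.2% of all coding genes. The 2.49% thus includes many genes without H3K4me3.

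Domains at ribosomal protein genes and at tRNA genes held no succinyllysine. Genes of cytosolic ribosomal proteins lay in 11 broad domains, which is 14.1% of 78 genes beside 2.49% of all coding genes. H3K4me3 of any width was present at 77 of the 78, beside 53.2% of all coding genes, so the 2.49% is a low base. Of the 11, 0 was touched, which allows a share of up to 28.5% (upper limit of the interval), beside 31.7% of all broad domains. Each of the 11 held 2 or more coding genes. Of all broad domains with 2 genes 23.4% were touched, and of those with 3 or more 20.7%. The limit of 28.5% lies above both shares, so 0 of 11 does not set these domains apart. The widest was that of Rpl7a with 12000 bp, and the narrowest that of Rpl4 with 7400 bp. Transfer RNA genes, which RNA polymerase III transcribes, lay in 12 broad domains, and 0 of the 12 was touched, which allows up to 26.5%. Of all broad domains of 7000 to 7900 bp, 21.9% were touched. The share was 30.4% at 8000 to 9900 bp and 59.7% at 10000 bp or more. The 12 tRNA domains held 41 of 408 tRNA genes (10.0%), beside 2.75% of coding genes counted by any overlap.

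Of the tRNA genes, 29 lay in 7 domains on chromosome 13. For example, the domain from 21164601 to 21175500, of 10900 bp, held 7 tRNA genes and no coding start or end. Small nucleolar RNAs, which guide the modification of ribosomal RNA, were in 9 broad domains. Of the 9, 2 touched succinyllysine, beside 31.7% of all broad domains. The 9 domains held 32 of 1340 snoRNA genes (2.39%), a share near that of coding genes. Eif4a2, a translation initiation factor gene, had 5 of them in 7100 bp with 800 bp of succinyllysine.

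No coding gene was assigned by the rule of starts or ends to 43 broad domains, of which 24 overlapped a coding gene and 19 did not. Of the 43, 21 overlapped a long noncoding RNA (lncRNA) gene and 3 overlapped no coding, lncRNA or tRNA gene. Succinyllysine touched 19 of the 43 (44.2%, interval 29.1 to 60.1) and 113 of the 373 others (30.3%, interval 25.7 to 35.2). By bases the shares were 23.8% and 11.1%. The intervals for touching overlap. The widest of these 3 was a domain of 19100 bp on chromosome 15 (85663601 to 85682700) with 9300 bp of succinyllysine, and they include the domain over pseudogenes on chromosome 4.

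Several of these domains, with and without succinyllysine, were at well-known lncRNAs. Chaserr, an RNA that limits its neighbour Chd2, had 7500 bp with 6100 bp of succinyllysine. Dleu2, the host of the miR-15a and miR-16-1 hairpins, had 10700 bp with 2000 bp. Neat1, the scaffold RNA of paraspeckles, had 7400 bp with 1900 bp, and Malat1, an RNA of nuclear speckles, had 8700 bp with 1000 bp. Carmn, an RNA of cardiac and smooth muscle, had 7400 bp with none. Gt(ROSA)26Sor, the locus into which the transactivator allele of both lines was placed, had 10900 bp (chromosome 6, 113073101 to 113084000) with 1200 bp. The same domain also overlapped the coding gene Setd5. The part of the transactivator insert in that signal was not tested.

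Of 1005 miRNA hairpins with a sequence entry, 19 (1.89%) lay in 15 broad domains and 158 (15.7%) touched an H3K4me3 region of any width. Succinyllysine touched 8 of the 15 domains, beside 31.7% of all broad domains and 59.7% of those of 10000 bp or more. The 8 held 11 hairpins, and 3 hairpins themselves overlapped succinyllysine. Mir199a-2 was in the domain of the lncRNA Dnm3os on chromosome 1, whose transcript also holds Mir214 and is known from the mesenchyme of the skeleton, with 8400 bp and 3600 bp of succinyllysine. Mir125b-1 was in a domain of 11300 bp over Mir100hg with 7700 bp, and Mir196b was in the domain of Hoxa9 and Hoxa10. The mature sequences of these hairpins are among those given above.

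The other hairpins with a shared seed were in domains that held succinyllysine beside them. Mir125a and Mirlet7e, which lie beside each other on chromosome 17, shared a domain of 8900 bp with 1600 bp of succinyllysine. Mir15b and Mir16-2, inside Smc4, a condensin gene, shared one of 10600 bp with 1900 bp. In neither domain did succinyllysine overlap a hairpin.

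H3K27me3 was listed in few broad domains. It touched 8 of the 416 (1.92%, interval 0.834 to 3.75), against 4.29% of all H3K4me3 regions and 0.917% of those of 4100 to 6900 bp. It covered 20700 bp, or 0.560% of their bases, against 1.50% in regions under 7000 bp and 0.546% in those of 4100 to 6900 bp. The values varied by width, with no steady rise across the threshold. H3K27me3 touched 2.59% of the regions of 6500 to 6900 bp and covered 1.52% of their bases. It touched 0 of 123 domains of 7000 to 7400 bp (interval 0 to 2.95). Of the 77 of 10000 bp or more it touched 7.79% (interval 2.91 to 16.2) and covered 1.59% of bases, which include the domain of Zfp981 and Zfp993 below. These intervals overlap, and a wider region has more room to be touched. Around the domains, 10 of the 416 (2.40%) had H3K27me3 within 5000 bp outside an edge. This compares with 16.0% of all H3K4me3 regions and 3.14% of those of 4100 to 6900 bp.

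A single domain held 49.3% of the H3K27me3 bases. It lay on chromosome 4 (146516101 to 146526700) over Zfp981 and Zfp993, members of a large zinc finger gene family with near-identical copies, and had 10200 of its 10600 bp in H3K27me3 and 7500 bp in succinyllysine. The other 7 domains were at developmental regulators and at Igf2bp1, the gene of an RNA-binding protein. Sim2, a bHLH-PAS gene of brain and muscle development, had 8100 bp with 4100 bp of H3K27me3 and 400 bp of succinyllysine. Meis1, a homeobox cofactor of Hox proteins, had 12400 bp with 2900 bp and 1900 bp. Foxc1, a forkhead gene of mesenchyme, had 11300 bp with 600 bp of H3K27me3, all of it inside its 5600 bp of succinyllysine.

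H3K27me3 came at the rim of a domain in 4 of the 13 pieces, which crossed an edge. At Tfap2a, an AP-2 gene of neural crest and ectoderm, 600 of 12100 bp lay in such a piece, and at Igf2bp1 700 of 8100 bp did. Neither domain held succinyllysine. Succinyllysine and H3K27me3 both touched 6 of the 416 domains (1.44%), against 0.521% of all H3K4me3 regions, and 282 domains touched neither list. The share touching both was 0.385% in regions of 4100 to 6900 bp. In those of 6500 to 6900 bp, just under the threshold, it was 1.55%, so it was not particular to broad domains. Of the 20700 bp of H3K27me3 in broad domains, 10100 bp was listed as succinyllysine too, of which 7400 bp was in the domain of Zfp981 and Zfp993. Without that domain it was 2700 of 10500 bp. The lists cannot show whether such marks were on the same molecules or cells.

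Promoters in broad domains were rich in CpGs, as were those in other H3K4me3 regions. Over 555 promoters of 438 genes, each taken from 250 bases before to 50 after the start, the median ratio of observed to expected CpGs was 0.84 (quartiles 0.66 and 1.00). It was 0.85 in regions of 4100 to 6900 bp, 0.79 in all regions under 7000 bp and 0.22 at starts without H3K4me3. GGGCGG, the core of the Sp1 motif, was in 68.6% of the promoters in broad domains, 72.0% of those in regions of 4100 to 6900 bp and 46.2% of all promoters. CCAAT was in 35.1%, 34.6% and 38.2% of these groups.

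TATAAA was in 5.77% of the promoters in broad domains, 4.60% of those in regions of 4100 to 6900 bp and 12.6% of all. TGANTCA, the AP-1 motif, was in 3.06%, 3.93% and 6.99%. Promoters in broad domains with succinyllysine had a median CpG ratio of 0.79 (165 promoters) and those in broad domains without it had 0.85 (390 promoters). In base composition and in these motifs, broad domains were therefore close to the next width class. Of the printed windows, the TGANTCA match lay in the Nfix promoter, the GGGCGG matches in the Cdkn1b and Hoxa10 promoters, and the CCAAT matches in the Cdkn1b and Meis1 promoters.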

How the data were processed

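ChIP-seq was run on 16 samples of 2 fibroblast lines. For each antibody the authors deposited a region list whose values are start and end positions, with no other measure such as a height or score. Per the submitters' processing notes, the aligner was Bowtie2 2.2.3 and the build mm10. For the peak caller, threshold, use of input and pooling of libraries: not given in the sources used here. Starts and ends fell on a 100 bp grid in the 3 lists, positions were taken as 1-based with both ends included, and width was end minus start plus 1. Widths depend on how the caller joined or split regions.

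Overlap was computed with Python 3.11.15, numpy 2.4.6 and pandas 2.3.3, and intervals with scipy 1.17.1. Overlap by at least 1 bp counted as touching. Genes, starts, promoters and miRNAs came from RefSeq tables for GRCm38.p6. Starts were known for 17492 of 21887 coding genes, and both ends stood in for a start in the other 4395, which include the genes of chromosome 18. The counting of overlapping bases, touching regions, merged regions and gaps between regions was tested on simulated intervals. No test was made, because the lists hold no values per sample.

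The domains, the 17 gene lists and the alternatives were chosen with earlier results of these data known. Genes were named by rule: those at the 10 widest domains, the 10 with most succinyllysine, the 10 with most H3K27me3, the 5 with most genes, 3 on each side of the threshold, up to 6 per list, and the Sdh subunit genes. Others, such as Snx9, Zc3h4, Trps1, Tbx15, Tsc22d2, Pcdh19, Ogfod2 and the noncoding genes, were chosen after their values were seen. A few genes named by the rule are left out of the text. Alternatives were other width thresholds, an overlap of 500 bp, wider regions of the other lists, merging within 1000 bp, autosomes alone, leaving out domains of 4 or more genes, any overlap with a gene, and the central 1000 bp.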

Additional observations from a re-analysis of the deposited data

How the results depend on the processing

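Of 49 alternative values, 28 stayed within the 95% interval of the reported share or within 1.5-fold of the 544 genes, a wider tolerance, and 21 moved. In each group of values below the order is broad domains touching succinyllysine, bases in succinyllysine, domains touching H3K27me3, bases in H3K27me3 and coding genes, leaving out those that did not move. A threshold of 6000 bp gave 901 domains, with 24.0% touching succinyllysine, 9.16% of bases in succinyllysine, 0.757% of bases in H3K27me3 and 1147 genes. A threshold of 10000 bp gave 77 domains, with 59.7% touching succinyllysine, 26.2% of bases, 7.79% touching H3K27me3, 1.59% of bases and 102 genes. Merging H3K4me3 regions within 1000 bp gave 751 domains, with 10.5% of bases in succinyllysine, 1.28% in H3K27me3 and 1082 genes. The central 1000 bp gave 17.1% touching succinyllysine, 13.4% of bases, 0.721% touching H3K27me3 and 0.469% of bases. Further alternatives were chosen after seeing the data. Joining abutting regions gave 531 domains, with 11.9% of bases in succinyllysine, 0.742% in H3K27me3 and 709 genes, the last within tolerance. Leaving out the 6 domains that touched both other lists gave 11.8% in succinyllysine. Leaving out 5 domains covered by 90% or more by another list gave 11.3% in succinyllysine and 0.288% in H3K27me3, so the H3K27me3 share of bases rests largely on the domain of Zfp981 and Zfp993. An overlap of 500 bp, wider regions of the other lists, autosomes alone, leaving out domains of 4 or more genes, and any overlap with a gene (602 genes) moved no value in this way. In every alternative listed, the share of bases in succinyllysine was above the 3.48% of H3K4me3 regions under 7000 bp. No paired analysis was possible because the lists hold no value per sample and no test was made, and replicates could not be left out for the same reason. Depth, peak height and the difference between the lines cannot be read from these lists.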
